A study of Mus musculus with 38 samples.

Results

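Complement is a cascade of secreted proteins, and 7 of its genes were followed here in Tcf21 lineage cells, the stromal cells of mouse visceral fat that are marked by the transcription factor Tcf21. The genes were C1ra, C4b, C2, Serping1, C3, Cfb and C7, chosen by symbol as complement components that stromal cells make, and they are 7 of the 25746 genes in the RNA tables. All 7 had a row, and each reached at least 1 TPM (a transcript level corrected for gene length and scaled within a library) in all 29 RNA libraries.

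Complement marks targets for removal and draws in inflammatory cells. In the classical pathway the protease C1r activates C1s, which cleaves C4 and C2 to build a C3 convertase. The inhibitor encoded by Serping1 blocks C1r and C1s. In the alternative pathway factor B, encoded by Cfb, pairs with C3b to cleave more C3, and C7 belongs to the terminal complex that inserts into membranes. The liver supplies most complement of the blood, and fibroblasts and macrophages are known to make several components locally.

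The cells were sorted from adipose tissue of Tcf21 knockout (KO) mice and of WT mice, 5000 cells to a library, and the labels give tamoxifen for all groups to switch on MerCreMer, a Cre recombinase whose promoter they do not name. The RNA groups were WT at postnatal day 12 (WT P12, n = 2), KO (n = 5) and WT (n = 7) at 3 weeks of age (3W), KO (n = 2) and WT (n = 4) fed high-fat diet (HFD) for 1 week (1W HFD), KO (n = 2) and WT (n = 5) fed it for 12 weeks (12W HFD), and WT at 6 months (WT 6M, n = 2). The P12, 3W and 6M mice ate regular chow. High-fat feeding began when the mice were 6 weeks old, so the HFD groups were also older than the 3W groups. Age and diet cannot be told apart in a comparison of HFD with 3W. The 12W HFD mice were also older than the 1W HFD mice, so age and time on diet cannot be told apart there. Age and diet both differ between 12W HFD and 6M as well. Tamoxifen was given at 75 mg/kg per day to adults, pregnant dams included, or 100 µg per day to neonates, and the labels do not say which of these a group had. A further 9 libraries hold open chromatin (ATAC-seq, in which Tn5 transposase tags accessible DNA) of KO 3W (n = 2), WT 3W (n = 3), WT 1W HFD (n = 2) and WT 12W HFD (n = 2). The sources used here do not say that libraries of a group came from separate mice, so p-values measure the spread between libraries.

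Tcf21 itself, the targeted gene, lay at 20.0 to 60.9 TPM in KO 3W against 37.6 to 109 TPM in WT 3W, at 8.10 to 16.4 TPM in KO 1W HFD against 11.3 to 47.4 TPM in WT 1W HFD, and at 1.64 to 5.67 TPM in KO 12W HFD against 5.86 to 13.5 TPM in WT 12W HFD. The ranges overlapped at the first 2 of these times, and the labels do not say which part of the gene the knockout removes. Markers of stroma were high in every library, with Dcn at no less than 10335 TPM and Pdgfra at no less than 63.9 TPM. Of 8 hepatocyte markers, Ttr and Fgb were listed at 0 in all libraries and Alb reached at most 0.18 TPM, while Ahsg reached 138 TPM. The summed level of 18 macrophage markers was 192 to 210 TPM in WT P12, 122 to 700.5 TPM in KO 3W, 50.4 to 249 TPM in WT 3W, 1308 to 1336 TPM in KO 1W HFD, 611 to 921 TPM in WT 1W HFD, 3251 to 6900.0 TPM in KO 12W HFD, 4047 to 11528 TPM in WT 12W HFD and 3212 to 7592 TPM in WT 6M. The summed level of 6 erythroid markers reached 41699.8 TPM in a WT 12W HFD library. The other lists summed to at most 345 TPM for neutrophils and 196 TPM for lymphocytes, and to 12.1 to 636 TPM for endothelium, 17.4 to 181 TPM for mesothelium and 155 to 1945 TPM for adipocytes. In the mesothelium list Wt1 alone was at 15.2 to 146 TPM, and the other markers had medians of at most 2.12 TPM. In the adipocyte list Fabp4 alone was at 147 to 1716 TPM, and the other markers had medians of at most 12.6 TPM. In sorted bulk libraries, fewer cells of a type and less RNA per cell cannot be told apart.

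The promoters of C3 and C7 are shown because these genes were the 2 called higher in WT cells after 1 week of high-fat diet. They are the 250 bases before the start, 5′ to 3′ on the gene's own strand, from RefSeq on GRCm38.p6, the assembly behind mm10. C3 is at chr17:57228137-57228386 on the minus strand and C7 at chr15:5063774-5064023 on the minus strand. Capitals mark matches to the motifs searched.
C3: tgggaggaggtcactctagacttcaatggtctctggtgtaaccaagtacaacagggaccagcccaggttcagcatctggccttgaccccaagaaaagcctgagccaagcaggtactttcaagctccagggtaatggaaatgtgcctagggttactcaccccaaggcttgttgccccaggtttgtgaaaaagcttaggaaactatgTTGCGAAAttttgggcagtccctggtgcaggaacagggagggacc
C7: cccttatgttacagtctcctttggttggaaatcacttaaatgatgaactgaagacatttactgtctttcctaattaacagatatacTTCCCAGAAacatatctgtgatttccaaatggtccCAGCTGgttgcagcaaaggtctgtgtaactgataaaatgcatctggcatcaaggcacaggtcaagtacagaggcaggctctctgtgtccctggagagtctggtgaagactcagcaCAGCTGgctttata

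The 5 motifs searched, on both strands of a 300-base window that ends 50 bases past the start, were GAAANNGAA (interferon response type), TTCNNNGAA (STAT type), GGGNNTTCC (NF-kB type), TTGCNNAA (C/EBP type) and CAGCTG (an E-box of the kind that basic helix-loop-helix factors such as Tcf21 bind). These occur in 8.56%, 8.30%, 5.82%, 10.8% and 16.3% of the 32851 promoters of that length in the table. The C3 window held 1 match, to the C/EBP type at positions -45 to -38 from the start. The C7 window held a STAT-type match beginning at -164, E-boxes beginning at -129 and -14, and an interferon-type match past the start, which is outside the printed bases. The promoter of C1ra, the third of 3 members that the table holds, had a STAT-type and a C/EBP-type match, both past the start. No matches overlapped in these windows. The genes C2, Cfb, C4b and Serping1 are named only.

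Serping1, the C1 inhibitor, was by far the most abundant of the 7 genes, at 1638 to 9827 TPM, and ranked between place 5 and place 60 of all genes in every library. It made up 58.3% to 87.2% of the summed TPM of the 7 genes. Its row lies on mm10 at chr2:84765387-84775444. Serping1 was at 3474, 4961, 5325, 5122 and 4008 TPM in KO 3W, at 6398 and 7013 TPM in KO 1W HFD, and at 8464 and 8599.5 TPM in KO 12W HFD. These 3 KO ranges did not overlap. Of all tested genes, 14.3% did not overlap in KO 1W HFD against KO 3W and 18.7% in KO 12W HFD against KO 3W. In KO 12W HFD against KO 1W HFD, with 2 libraries each, 37.6% did not. Serping1 was not called in these 3 comparisons (limma adjusted p = 0.538, 0.105 and 0.991). In WT cells Serping1 was at 2635 and 1638 TPM at P12, at 2967 to 6999 TPM with a median of 5397 TPM at 3W, at 7977, 4957, 4783 and 6748 TPM at 1W HFD, at 6664, 5461, 5182, 6625 and 6245 TPM at 12W HFD, and at 9827 and 5374 TPM at 6M. The WT P12 libraries lay below every other library, and the later WT ranges overlapped each other.

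C1ra encodes the protease C1r and lies at chr6:124512405-124523443, near its copy C1rb (median 0.07 TPM, highest 37.7 TPM), with which reads may have been shared. It was at 325, 284, 523, 436 and 199 TPM in KO 3W, at 565.5 and 835 TPM in KO 1W HFD, and at 695 and 690.2 TPM in KO 12W HFD. Every KO library on high-fat diet was above every KO 3W library, beside the shares of all tested genes given for Serping1. C1ra was not called in KO 1W HFD or KO 12W HFD against KO 3W (limma adjusted p = 0.373 and 0.250). In WT cells C1ra was at 207 and 130.4 TPM at P12, at 133 to 521 TPM (median 387 TPM) at 3W, at 429, 411, 375 and 538 TPM at 1W HFD, at 439, 268, 318, 574 and 424 TPM at 12W HFD, and at 714 and 162 TPM at 6M. All neighbouring groups overlapped when the 8 groups were ordered by median C1ra.

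C4b encodes complement C4, and its row lies at chr17:34728380-34743882. No RNA row carried the symbol C4a, and reads of C4a may have been counted to C4b, so the level of C4b is uncertain. C4b was the lowest of the 7 genes in each library of P12 and 3W. It was at 7.83, 18.8, 16.9, 11.4 and 4.79 TPM in KO 3W, at 28.5 and 116 TPM in KO 1W HFD, and at 398 and 277 TPM in KO 12W HFD. The 3 KO ranges did not overlap, beside the shares of all tested genes given for Serping1. In WT cells C4b was at 6.22 and 3.99 TPM at P12, at 8.78 to 19.4 TPM (median 11.5 TPM) at 3W, at 18.9, 29.2, 18.1 and 26.4 TPM at 1W HFD, at 232, 167, 130.1, 203 and 387 TPM at 12W HFD, and at 364 and 30.8 TPM at 6M. All 5 WT 12W HFD libraries were above all WT libraries of P12, 3W and 1W HFD, and the 6M libraries were apart from each other.

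C2 encodes the protease that joins C4b in the classical convertase. Its row (chr17:34862604-34898265) begins 85 bases past the end of Cfb (chr17:34856374-34862518), and C4b ends 112491 bases before Cfb. C2 was at 45.4, 116, 111, 134 and 52.1 TPM in KO 3W, at 87.9 and 72.8 TPM in KO 1W HFD, and at 162 and 118 TPM in KO 12W HFD. In WT cells it was at 43.0 and 39.9 TPM at P12, at 25.6 to 88.7 TPM (median 55.3 TPM) at 3W, at 80.9, 44.6, 19.9 and 52.0 TPM at 1W HFD, at 86.1, 60.3, 75.0, 82.0 and 88.2 TPM at 12W HFD, and at 109 and 38.4 TPM at 6M. C2 had the narrowest spread of group medians, and every pair of neighbours in the order of medians overlapped. The C2 and Cfb rows both overlap Gm20547, which reached at most 0.48 TPM, and C2 also overlaps Zbtb12, which reached at most 1.95 TPM.

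**Figure D1:**
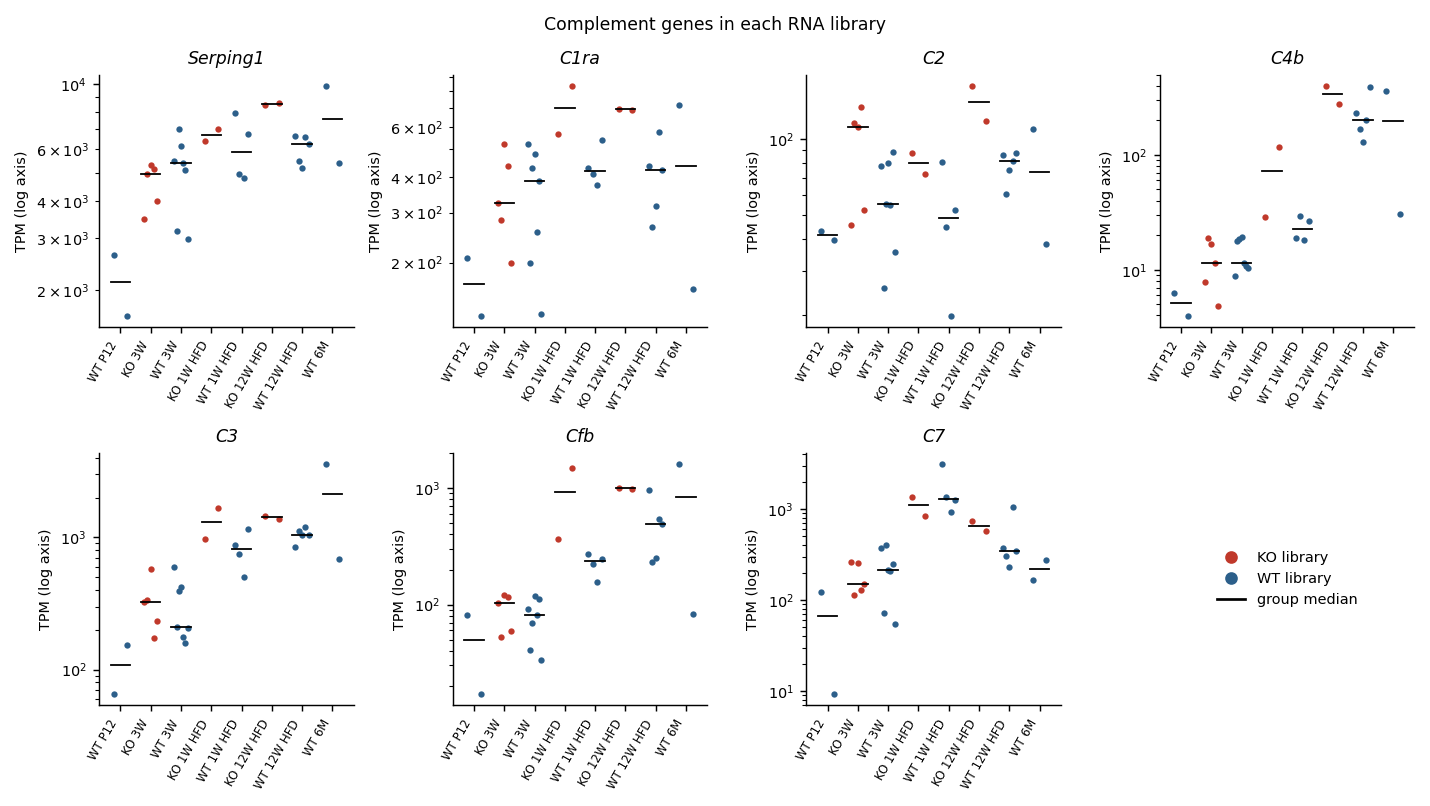
Level of each complement gene in TPM (log axis) in the 29 RNA libraries, by group; each point is a library, red for KO and blue for WT, and the black line is the group median. Serping1 stays above 1638 TPM throughout, C4b is highest in the KO and WT 12W HFD libraries and in 1 WT 6M library, and C7 is highest at 1W HFD.

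C3, the protein on which all complement pathways converge, lies at chr17:57203970-57228136. It was at 325, 339, 582, 175 and 235 TPM in KO 3W, at 969 and 1661 TPM in KO 1W HFD, and at 1458 and 1381 TPM in KO 12W HFD. The KO libraries on high-fat diet were all above the KO 3W libraries. In WT cells C3 was at 65.5 and 153 TPM at P12, at 158 to 602 TPM (median 211 TPM) at 3W, at 873, 749.9, 499.5 and 1157 TPM at 1W HFD, at 846, 1119, 1041, 1192 and 1041 TPM at 12W HFD, and at 3575 and 689 TPM at 6M. In the order of C3 medians, WT 3W and WT P12 were the only neighbours whose ranges did not overlap.

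Cfb, the alternative-pathway protease, was at 103, 52.5, 122, 116 and 59.0 TPM in KO 3W, at 367 and 1497 TPM in KO 1W HFD, and at 1011 and 989 TPM in KO 12W HFD. In WT cells Cfb was at 81.3 and 17.1 TPM at P12, at 33.2 to 119.6 TPM (median 80.7 TPM) at 3W, at 269.9, 222, 156 and 248 TPM at 1W HFD, at 958, 234, 253, 547 and 492.5 TPM at 12W HFD, and at 1601 and 82.9 TPM at 6M. Every library on high-fat diet, KO or WT, was above every library of P12 and 3W, while 1 of the WT 6M libraries lay among the 3W values.

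C7, a terminal component, lies at chr15:4988762-5063740 and had another order. It was at 262, 115, 256, 129 and 150.0 TPM in KO 3W, at 1352.5 and 839 TPM in KO 1W HFD, and at 729 and 573 TPM in KO 12W HFD. In WT cells C7 was at 122 and 9.31 TPM at P12, at 54.0 to 401 TPM (median 214 TPM) at 3W, at 3095, 1338, 923 and 1269 TPM at 1W HFD, at 369, 304.5, 231, 1053 and 349.6 TPM at 12W HFD, and at 168 and 274 TPM at 6M. The 1W HFD groups had the highest C7 medians, WT before KO. The 2 KO 1W HFD libraries were above the 2 KO 12W HFD libraries without overlap, as 37.6% of all tested genes did not overlap in either direction. The C7 change in KO 12W HFD against KO 1W HFD was -0.72 ± 0.86 (SE) on the log2(TPM + 1) scale and was not called. Among the other neighbours in the order of C7 medians, all ranges overlapped.

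**Figure D2:**
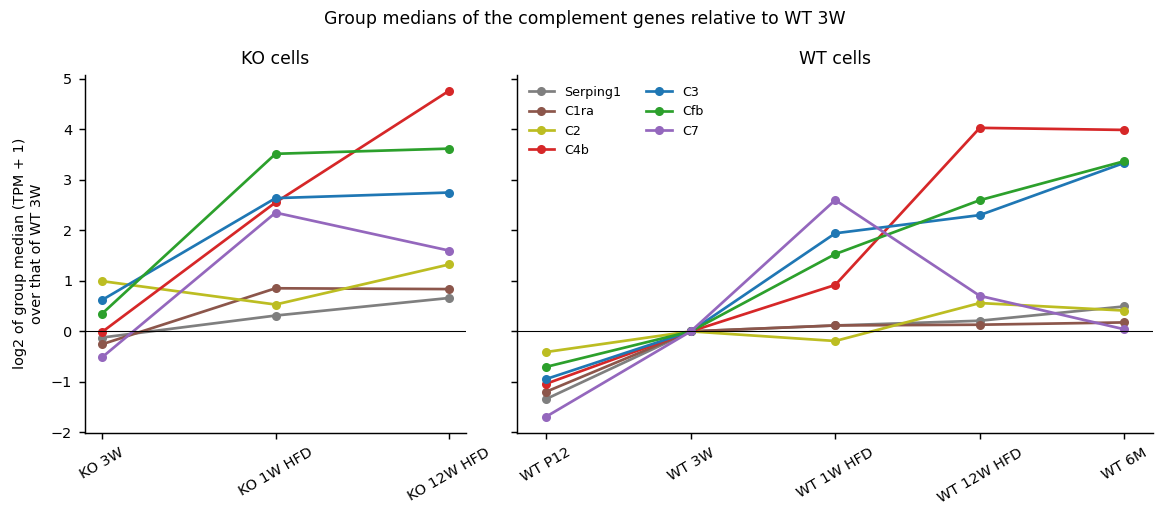
Group medians of each complement gene relative to its WT 3W median, as log2 of (TPM + 1), for KO cells (left) and WT cells (right); lines join groups of a genotype, the horizontal axis is not a time scale, and no spread is drawn. In WT cells C7 is highest at 1W HFD and C4b is highest at 12W HFD and 6M, while C1ra, C2 and Serping1 stay near their WT 3W level after 3W.

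After 12 weeks of high-fat diet, WT cells had higher C4b, C3 and Cfb than WT cells at 3W, and this was the comparison with the most genes called in all. On the log2(TPM + 1) scale, where the added 1 shrinks changes of genes at low TPM, C4b was higher by 3.88 ± 0.42 (SE; limma adjusted p = 6.87e-08), Cfb by 2.59 ± 0.52 (adjusted p = 0.000597) and C3 by 1.92 ± 0.36 (adjusted p = 0.000275), with n = 5 against 7 libraries. Of the 15659 genes tested, 7.94% were called higher and 6.23% lower. For these 3 of 7 members the groups did not overlap in TPM, as was so for 7.59% of all tested genes in either direction. The changes of the other 4 were 1.11 ± 0.50 for C7, 0.49 ± 0.33 for C2, 0.32 ± 0.33 for C1ra and 0.31 ± 0.22 for Serping1, none past the threshold of adjusted p under 0.05. The median change of the 7 was 1.11, beside -0.04 for all tested genes. The 3 calls held in all 20 alternative fits, those without a library included.

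Of 48 further complement genes listed, 47 were in the tables and 37 were tested, and 15 of these rose and 2 fell in WT 12W HFD against WT 3W, with a median change of 0.67. By size, those with the largest changes were Itgb2 (5.81 ± 0.54), the shared chain of the complement receptors of leukocytes, then C1qb (5.32 ± 0.43) and C1qc (5.18 ± 0.40), chains of the recognition protein C1q, C5ar1 (4.93 ± 0.39) and C3ar1 (4.76 ± 0.36), receptors for the peptides C5a and C3a, and C1qa (4.80 ± 0.46). Each of these 6 had a limma adjusted p of at most 7.47e-09. The C1q genes are also on the macrophage list, of which 16 of 18 rose. C1s1, the partner protease of C1r, rose by 0.54 ± 0.16 (adjusted p = 0.0237), and Cfd, the adipocyte-rich protease that activates factor B, fell by 3.07 on the log2 scale (SE 0.70, adjusted p = 0.00249). The 2 KO 12W HFD libraries and the 5 WT 12W HFD libraries allow C4b to be set beside the macrophage sum. C4b was 398 and 277 TPM where the macrophage markers summed to 3251 and 6900.0 TPM in KO. In WT it was 232, 167, 130.1, 203 and 387 TPM where they summed to 7394, 10652, 11528, 7789 and 4047 TPM. The mean log2(TPM + 1) of the markers was 6.60, 6.11, 6.61, 6.86 and 5.64 in the same WT libraries, and 5.37 and 6.01 in the KO libraries. In the 2 WT 6M libraries the higher C4b stood with the higher macrophage sum. C4b was 364 TPM there beside a sum of 7592 TPM, and 30.8 TPM beside 3212 TPM. C4b and the macrophage sum were both higher in every 12W HFD library than in every 3W library. Of 8 lymphocyte markers tested, 7 rose, with a median change of 2.09. Of 10 markers of the lineage stroma 1 rose and 4 fell, and of 10 adipocyte markers 1 rose and 3 fell. The part of these cells in the C4b, C3 and Cfb levels was not tested.

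**Figure D3:**
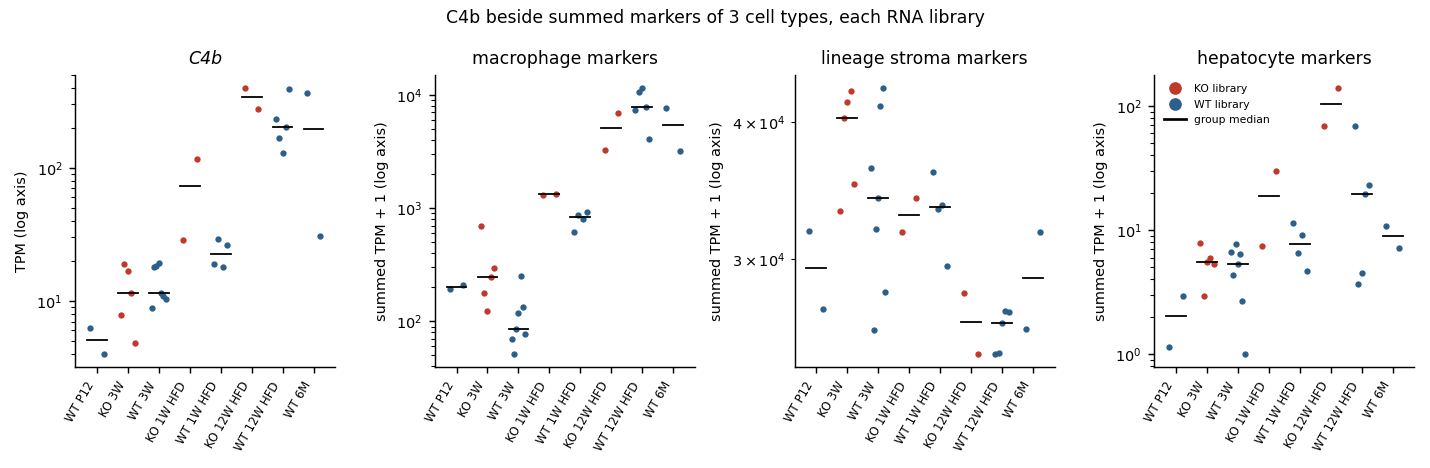
C4b in TPM and the summed TPM + 1 of marker genes of macrophages, lineage stroma and hepatocytes (log axes) in each RNA library, by group; red points are KO and blue points WT libraries, and black lines are group medians. Macrophage sums are 3212 TPM or more in all 12W HFD and 6M libraries, stroma sums lie between 24603 and 42942 TPM throughout, and hepatocyte sums stay at or under 139 TPM.

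After 1 week of high-fat diet the order of genes was different. C7 was higher in WT 1W HFD than in WT 3W by 3.02 ± 0.54 (limma adjusted p = 0.000797), without overlap, and C3 by 1.51 ± 0.38 (adjusted p = 0.0135), with overlap, with n = 4 against 7. Of all tested genes, 4.78% were called higher and 3.25% lower. Cfb was 1.61 ± 0.55 higher and the groups did not overlap, but it missed the threshold (adjusted p = 0.0715). C7 and Cfb were the 2 of 7 members without overlap, beside 6.02% of all tested genes. C4b differed by 0.73 ± 0.45. The C7 call held in all 19 alternative fits. The C3 call was lost without WT 1W HFD replicate 4 (1.32, adjusted p = 0.0707), with the other groups left out of the fit (1.51, adjusted p = 0.0538) and with the replicate block (1.04, adjusted p = 0.122). The median change was 0.73 for the 7 members and 0.02 for all tested genes. Of the 37 other complement genes, 10 rose and 1 fell. C1qc (2.61 ± 0.42), C1qb (2.60 ± 0.46), C1qa (2.52 ± 0.49) and Fcna (2.24 ± 0.67), a ficolin that recognises sugars, were the largest, followed by Cd55 (1.96 ± 0.26), which breaks up convertases on cell surfaces, and C5ar1 (1.94 ± 0.42). Each of the 6 had an adjusted p of at most 0.0347. Of the macrophage list 12 of 18 rose, and of 10 endothelial markers 5 rose; the part of these cells in the C7 and C3 levels was not tested.

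Between 1 and 12 weeks of diet, which also differ in age, C4b and C7 moved apart in WT cells. C4b was higher at 12W HFD than at 1W HFD by 3.15 ± 0.48 (limma adjusted p = 6.30e-05), without overlap and in all 17 alternative fits, where 3.54% of tested genes were called higher. It was the 1 member of 7 without overlap, beside 10.5% of all tested genes. C7 was lower at 12W HFD by 1.91 on the log2 scale (a change of -1.91 ± 0.58, adjusted p = 0.0471), where 2.39% were called lower. The C7 ranges overlapped through WT 12W HFD replicate 4, at 1053 TPM. The C7 call was lost in 11 of 17 alternative fits, among them those without WT 1W HFD replicate 1, 2 or 4 (adjusted p = 0.180, 0.0854 and 0.0812) and those without WT 12W HFD replicate 1, 2, 3 or 5 (adjusted p = 0.0867, 0.104, 0.122 and 0.0814). Of the other complement genes 10 rose and 1, Cd55, fell, by 1.19 (SE 0.27, adjusted p = 0.00605). The largest were Itgb2 (4.77 ± 0.62), Itgax (3.11 ± 0.40), C3ar1 (2.99 ± 0.41), C5ar1 (2.99 ± 0.45), C1qb (2.72 ± 0.49) and Cfp (2.62 ± 0.61), with adjusted p of at most 0.00642. Itgax is a chain of a complement receptor of leukocytes, and Cfp encodes properdin, which stabilises the alternative convertase. The macrophage list moved with them, with 14 of 18 rising, and its part was not tested.

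In WT 6M cells C4b (2.91 ± 0.58, limma adjusted p = 0.00128), C3 (2.51 ± 0.49, adjusted p = 0.00112) and Cfb (2.34 ± 0.71, adjusted p = 0.0311) were called higher than in WT 3W, in a comparison of 2 with 7 libraries where 4.00% of genes were called higher. All 3 calls were lost without WT 6M replicate 1, where the changes were 1.16 for C4b (adjusted p = 0.298), 1.32 for C3 (adjusted p = 0.196) and 0.21 for Cfb (adjusted p = 0.922). That library had C3 at 3575 TPM, the highest of the 29. It also had the higher macrophage sum (7592 TPM, against 3212 TPM in replicate 2) and neutrophil sum (345 TPM, against 11.8 TPM). The erythroid sum was higher in replicate 2 (39122.5 TPM, against 9135 TPM in replicate 1). The part of these cells was not tested. Without WT 6M replicate 2 the changes were 4.67, 3.69 and 4.47, and without WT 3W replicate 2 the Cfb call was lost (adjusted p = 0.0505). The median change of all tested genes was -0.24, beside 0.59 for the 7 members, and -0.05 after median-ratio scaling, under which C4b, C3 and Cfb were higher by 3.19, 2.79 and 2.62. Of the other complement genes 9 rose and 1 fell, where 1073 of the 15659 tested genes were called lower. The largest rises were those of C1qb (5.05 ± 0.59), C1qc (4.61 ± 0.54), Fcna (4.29 ± 0.85), Cfp (4.20 ± 0.72), C1qa (4.00 ± 0.63) and C5ar1 (3.86 ± 0.54). Each of these had a limma adjusted p of at most 0.00128. Of the macrophage list 15 of 18 rose, of 5 neutrophil markers tested 4 and of 8 lymphocyte markers tested 4, and their part was not tested.

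When WT 12W HFD was set against WT 6M, limma called 0 of the 7 members, with 0.881% of genes called and 2189 genes, 0 of them members, at an unadjusted p under 0.05. Changes ran from -0.59 for C3 to 0.96 for C4b, with a median of 0.24 beside 0.22 for all genes (0.07 after median-ratio scaling). Without WT 6M replicate 1, C4b was called higher in WT 12W HFD (2.72, adjusted p = 0.0194). The only other complement gene called was Itgax, higher by 2.86 ± 0.50.

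From day 12 to 3 weeks Serping1 was higher in WT 3W than in WT P12, by 1.22 ± 0.31 (limma adjusted p = 0.0362; n = 7 against 2), without overlap, with 0.626% of genes called higher and 1.00% lower. All 7 members had a positive change, with a median of 1.22 beside -0.04 for all genes, and C3 (1.45 ± 0.49) and C4b (1.25 ± 0.58) did not overlap either without passing (adjusted p = 0.143 and 0.317). These 3 of 7 members without overlap stand beside 8.0% of all tested genes (1252 of 15659). The Serping1 call was lost in 12 of 17 alternative fits, with adjusted p between 0.0518 and 0.0631 without WT P12 replicate 1 or WT 3W replicate 1, 3, 4, 5 or 6, and 0.319 without WT P12 replicate 2. C7 (2.36 ± 0.69, adjusted p = 0.0794) was called without WT P12 replicate 1, WT 3W replicate 2 or WT 3W replicate 7 (adjusted p = 0.00478, 0.0403 and 0.0298). Of the other complement genes Vtn, encoding vitronectin, which binds the terminal complex, rose (1.89 ± 0.50), and Cd93 fell by 2.40 (SE 0.60). Endothelial markers moved too, with 6 of 10 falling, and 4 of 6 erythroid markers rose; their part was not tested.

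KO cells on diet had the same 3 members called as WT 12W HFD cells, in the comparison of KO 12W HFD with KO 3W. C4b was higher by 4.83 ± 0.60 (limma adjusted p = 5.43e-06), Cfb by 3.53 ± 0.74 (adjusted p = 0.00246) and C3 by 2.22 ± 0.51 (adjusted p = 0.00654), with n = 2 against 5, where 3.19% of genes were called higher and 1.96% lower. Of the 7 members, 6 did not overlap, all but C2, beside 18.7% of all tested genes, and the median change was 1.91 beside -0.05 for all genes. The C4b call held in all 15 alternative fits. C3 was lost without KO 12W HFD replicate 1 or 2 (adjusted p = 0.0828 and 0.0986) and with the replicate block (2.09, adjusted p = 0.0715), and Cfb without KO 12W HFD replicate 2 (adjusted p = 0.0592). Of the other complement genes 13 rose and Colec11, a collectin, fell by 3.31 (SE 0.63). The largest were Itgb2 (5.64 ± 0.77), C6 (4.20 ± 0.84), which precedes C7 in the terminal complex, C5ar1 (4.19 ± 0.56), C3ar1 (4.01 ± 0.51), C1qc (3.51 ± 0.56) and C1qb (3.33 ± 0.62), with adjusted p of at most 0.00148. Of the macrophage list 13 of 18 rose, and its part was not tested.

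In KO 1W HFD against KO 3W, Cfb (3.10 ± 0.74, limma adjusted p = 0.0394) and C3 (2.05 ± 0.51, adjusted p = 0.0488) were called, where 0.428% of genes were called higher and 0.434% lower. C7 (2.63 ± 0.72, adjusted p = 0.0795) and C4b (2.32 ± 0.60, adjusted p = 0.0618) missed the threshold, and 6 of 7 members did not overlap, again all but C2, beside 14.3% of all tested genes. Neither call held throughout: both were lost without KO 1W HFD replicate 2 (Cfb 2.09, adjusted p = 0.577; C3 1.66, adjusted p = 0.464) and without KO 3W replicate 2, 4 or 5 (Cfb adjusted p = 0.0926, 0.0533 and 0.0763; C3 adjusted p = 0.0870, 0.123 and 0.0976). C3 was also lost without KO 1W HFD replicate 1 (adjusted p = 0.129), where C4b was called (3.32, adjusted p = 0.0404). Of the other complement genes C1qc (2.48 ± 0.56), C5ar1 (2.29 ± 0.56) and Cd55 (1.44 ± 0.34) rose, and Colec11 and Masp1, a protease of the lectin pathway, fell by 3.17 (SE 0.63) and 2.45 (SE 0.61). Of the macrophage list 5 of 18 rose (median 2.08) and of 9 mesothelial markers tested 1 rose (median 1.20), and their part was not tested. In KO 12W HFD against KO 1W HFD, limma called 0 of the 7 members, with 0.760% of genes called and 1245 at an unadjusted p under 0.05, 1 of them a member; this was C4b, whose fitted TPM + 1 was 5.67 times as high (adjusted p = 0.117). C4b was 1 of 4 members without overlap, beside 37.6% of all tested genes. Of the other complement genes Itgb2 (4.19 ± 0.92) and Itgax (3.26 ± 0.60) rose.

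**Figure D4:**
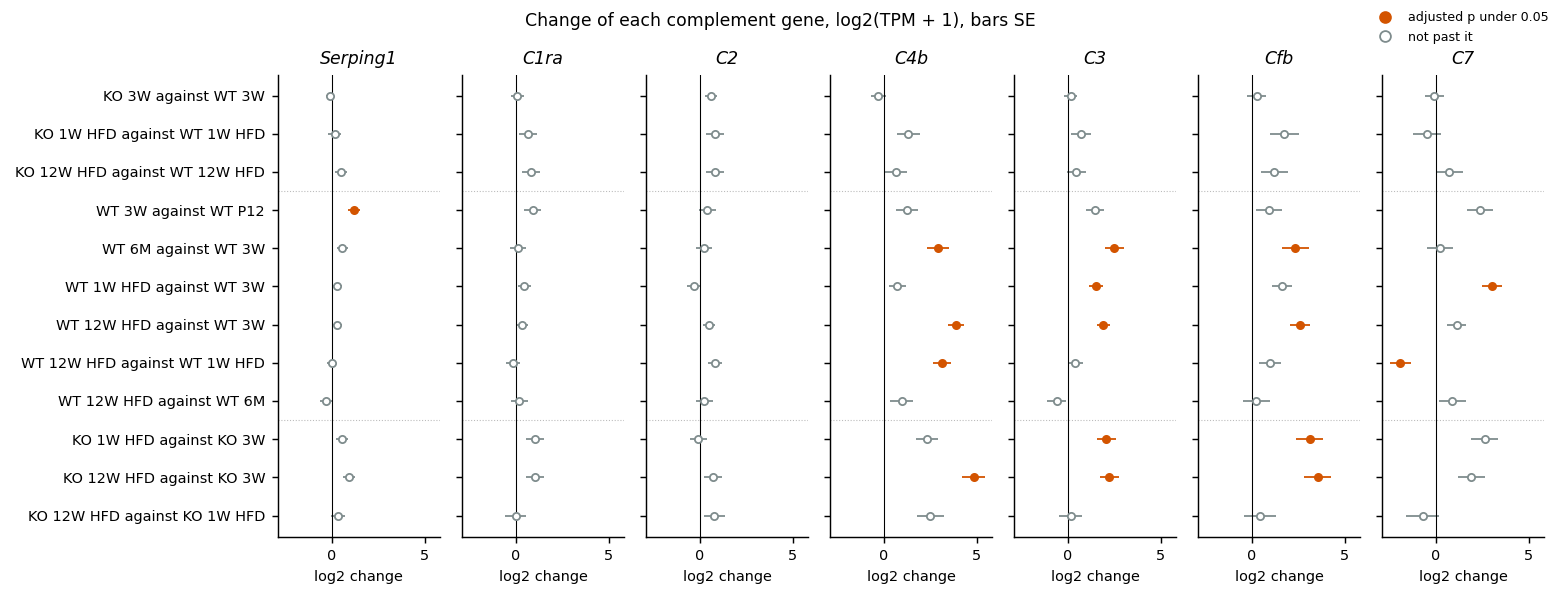
Change of each complement gene on the log2(TPM + 1) scale with its SE in the 12 comparisons of groups, tested by limma; filled orange points have an adjusted p under 0.05 over all genes tested, open grey points do not. Called changes are those of C4b, C3 and Cfb in WT and KO 12W HFD against 3W and in WT 6M, C7 and C3 in WT 1W HFD, C3 and Cfb in KO 1W HFD, C4b and C7 in WT 12W HFD against WT 1W HFD, and Serping1 in WT 3W against WT P12.

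KO cells had no called change of these genes against WT cells at any of the 3 times compared. At 3W limma called 0 of the 7 members and 0% of all genes, with 546 genes, none of them a member, at an unadjusted p under 0.05. The differences of KO 3W from WT 3W ran from -0.28 ± 0.42 for C4b to 0.59 ± 0.33 for C2, with a median of 0.10 beside 0.01 for all genes, and all 7 overlapped. Of all tested genes 0.0766% did not overlap. At 1W HFD 0 members were called, with 0.0255% of genes called and 540 at an unadjusted p under 0.05, of which 2 were members, Cfb (1.75 ± 0.76 higher in KO, unadjusted p = 0.0293) and C4b (1.31 ± 0.62, unadjusted p = 0.0444). Their limma adjusted p was 1. Cfb and C1ra (0.66 ± 0.48) did not overlap between the 2 KO and the 4 WT libraries, as was so for 11.4% of all tested genes. The median was 0.69 beside 0 for all genes, and C7 was the 1 member with a negative value (-0.48 ± 0.75). The macrophage markers summed to 1308 and 1336 TPM in KO against 611 to 921 TPM in WT, and limma called 0 of the 18, with 3 at an unadjusted p under 0.05. Of 9 mesothelial markers tested 1 was called higher and 5 had an unadjusted p under 0.05, with a median difference of 2.07. The mean log2(TPM + 1) of the mesothelial list was 3.43 in KO 1W HFD replicate 1 and 1.64 in replicate 2. In the same 2 libraries Cfb was at 367 and 1497 TPM and C4b at 28.5 and 116 TPM. The part of macrophages and mesothelial cells in the differences of Cfb, C4b and C1ra was not tested.

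At 12W HFD all 7 members had higher fitted means in KO than in WT, by 0.45 ± 0.51 for C3, 0.51 ± 0.32 for Serping1, 0.67 ± 0.60 for C4b, 0.71 ± 0.72 for C7, 0.82 ± 0.47 for C2, 0.82 ± 0.46 for C1ra and 1.21 ± 0.74 for Cfb, and limma called 0 of them (adjusted p = 1 each; 0.00639% of genes called). At an unadjusted p under 0.05 there were 570 genes and 0 members. In 5 of them, Serping1, C1ra, C2, C3 and Cfb, both KO libraries were above all 5 WT libraries; of all tested genes 9.94% did not overlap, in either direction. The median was 0.71, beside -0.01 for all genes. The macrophage sum overlapped between KO (3251 and 6900.0 TPM) and WT (4047 to 11528 TPM). The difference between KO effects was not called for any of the 7 members by limma: 12W HFD minus 3W was 0.23 to 0.95 (0% of genes called; 419 genes and 0 members at an unadjusted p under 0.05), 1W HFD minus 3W was -0.40 to 1.59 (0.00639%; 413 genes and 1 member, C4b), and 12W HFD minus 1W HFD was -0.64 to 1.19 (0.0128%; 432 genes and 0 members). Of the 37 other complement genes, limma called 0 in KO against WT at 3W, 1W HFD or 12W HFD, with 3, 0 and 6 at an unadjusted p under 0.05. A list of 19 cytokines, receptors and transcription factors known to induce complement genes also had 0 called at each of these times, with 0, 0 and 3 at an unadjusted p under 0.05. In WT 12W HFD against WT 3W, 6 of the 19 rose and 2 fell, where 7.94% of all tested genes were called higher and 6.23% lower.

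In some libraries all 7 members lay on the same side of their group means, and in the others they were split. How often 7 other genes do so was not counted, and in groups of 2 libraries the deviations mirror each other. In KO 3W replicate 3 and WT 3W replicate 4 all 7 members were above their group means, and in KO 3W replicate 5, WT 3W replicate 7 and WT 1W HFD replicate 3 all 7 were below. Over the 29 libraries, which share groups and scaling, Pearson's r of log2(TPM + 1) between members ran from 0.21 for C2 with C7 to 0.86 for C4b with Cfb. C7 with C4b had an r of 0.38, and Serping1 with C1ra 0.82.

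Among 7604 genes with a mean of at least 10 TPM, those most like each member over the 29 libraries were named by the same r. For C4b they were Cd14 (r = 0.92), a lipopolysaccharide co-receptor, C3ar1 (0.89), and Bcl2a1b (0.89). Over the 29 libraries C3ar1 ran from 0 to 81.1 TPM and Bcl2a1b from 0 to 69.5 TPM. Their medians were under 10 TPM, so they reached the required mean through a minority of libraries with high levels. The part of differences between groups in these r was not tested. For C3 they were P2rx4 (0.89), an ATP-gated channel, Tmem106a (0.87) and Dram1 (0.86), and for Cfb Dram1 (0.90), Mvp (0.86), the major vault protein, and Serpina3n (0.86), a secreted protease inhibitor. For C7 they were Medag (0.89), a gene of fat cell differentiation, Slco2b1 (0.89), an organic anion transporter, and Prelp (0.88), a matrix proteoglycan. For Serping1 they were Irak3 (0.83), C1s1 (0.82) and Serpina3n (0.82), for C1ra Ifnar2 (0.86), a chain of the type I interferon receptor, Grn (0.86) and Tapbp (0.85), and for C2 Il11ra1 (0.72), Aebp1 (0.71) and Uap1l1 (0.68).

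Open chromatin was present at the starts of C3 and C1ra in all 9 peak lists, taking a peak within 1000 bases. The C3 start lay inside a peak of 3674 to 16577 bases, the widest ones in both WT 1W HFD lists, and the authors' fold enrichment of these peaks was 11.4 to 48.8. At the C7 start a peak was in 7 of 9 lists, in both KO 3W, 1 of 3 WT 3W, both WT 1W HFD and both WT 12W HFD lists. The WT 3W replicates 2 and 3, without one, had the shortest lists, 55990 and 58675 peaks against 76321 to 93314 in the others, and with a −log10 q of at least 5 KO 3W replicate 2 lost its peak too. Between 49.7% and 56.3% of 27025 gene starts had a peak in a list.

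For the genes whose strand the files do not give, both ends were read. Serping1 had a peak at its higher-coordinate end in 9 lists, with the authors' fold enrichment at 23.9 to 59.4, and at its lower end in 1. C2 and Cfb had peaks at both ends in 9 lists, with the end they share as neighbours in the same peaks, and C4b had one at its higher end in 9 and at its lower end in 8. Over the gene and 5000 bases on either side, peaks covered 17.0% to 45.7% of C4b in KO 3W and 24.3% to 75.5% in WT 3W, then 82.9% to 91.9% in WT 1W HFD and 80.8% to 88.1% in WT 12W HFD. Both diet groups were above all 3W lists. C3 was covered to 31.2% to 64.4% in KO 3W, 21.4% to 55.1% in WT 3W, 83.6% to 86.1% in WT 1W HFD and 53.7% to 58.2% in WT 12W HFD, and C7 to 2.92% to 4.57%, 1.49% to 2.00%, 7.68% to 9.16% and 3.90% to 5.51% in the same groups. For C3 and C7 the WT 1W HFD lists were the highest, and the same held for C1ra (14.7% and 18.0%, against at most 11.6% in the other lists) and Serping1 (42.8% and 48.6%, against at most 39.5%). Lists covered 75.6 to 172.6 Mb of the genome, the WT 1W HFD lists 136.6 and 172.6 Mb, so these shares are a description, and their relation to list length was not tested.

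**Figure D5:**
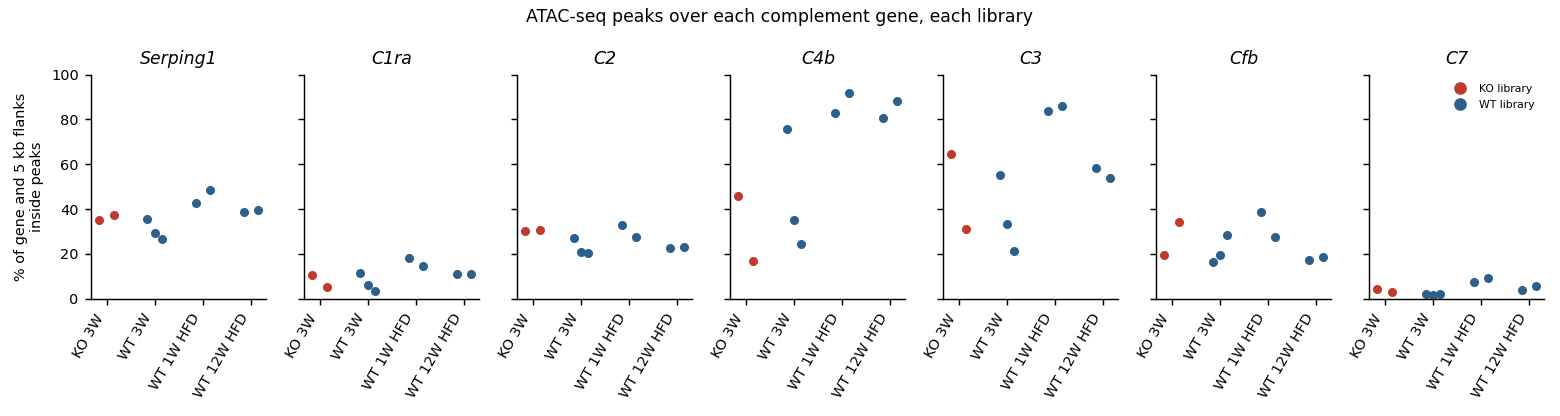
Share of each complement gene and the 5000 bases on either side that lies inside ATAC-seq peaks (percent), by group; each point is a peak list, red for KO and blue for WT. C4b is covered to over 80% in the 4 lists from high-fat diet, C3 is highest in WT 1W HFD, and C7 stays under 10% in all 9 lists.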

How the data were processed

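RNA values are TPM per gene as deposited by the authors, KO and WT in separate tables with the same 25746 genes; each column is scaled within itself (sums 918008 to 969385), so both tables were fitted together. Read depth cannot be had from TPM, is therefore unknown for every library, and no interval of counting error is given. Peak lists, called per library on mm10, carry a score, a fold enrichment (ratio) and −log10 p and q values as deposited by the authors; the score and −log10 p were not needed. Per the submitters' processing notes the tools were Trim Galore 0.6, FastQC, STAR 2.5.3a, RSEM, Bowtie2 2.3 and MACS2, with no step named; whether strand was used in counting is not stated.

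Groups come from titles: the genotype field matched 16 of 38 titles, differed in 22, and matched all 38 when read in reverse order. Genes with at least 1 TPM in 2 libraries (15659) were fitted on log2(TPM + 1) with limma 3.58.1 in R 4.3.3, with 8 group means, 21 residual degrees of freedom, trend, two-sided tests and Benjamini-Hochberg adjustment at 0.05; the fit was checked on simulated data. All 29 libraries share the spread estimate, and comparisons that share a group are not independent. Alternatives were another pseudocount, no filter, rescaling, median-ratio and quantile scaling, compared groups alone, array weights, a replicate block and leaving out each library. The replicate block joined libraries by the titled pair in KO 3W against WT 3W, and elsewhere by equal replicate number in the titles. The labels do not say that libraries with equal replicate numbers share anything. Named are the 7 members, up to 6 other complement genes past the threshold by size of change (C1s1, Cfd, Cd55 and other called genes beyond those 6 were chosen after their values were seen), and 3 like genes a member. Members and lists were chosen with earlier results of these data known. Other cell types listed were macrophages, neutrophils, lymphocytes, endothelium, mesothelium, adipocytes, hepatocytes and erythroid cells.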

Additional observations from a re-analysis of the deposited data

Results flagged for a closer look

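C7 in WT 12W HFD replicate 4 was at 1053 TPM, far from the other 4 libraries of its group, which lay between 231 and 369 TPM. On the TPM scale its gap to the nearest of them was 0.832 of the group's range, above Dixon's critical value of 0.71 for 5 samples. A gap on the log2(TPM + 1) scale of the fits would be smaller beside its range and is not given. It was the 1 value found among 28 pairs of a gene and a group of 4 or more libraries. For normally distributed values chance gives about 1 in 20 such groups, and whether TPM values are so distributed was not tested. The same library had 6 of the 7 members above their group means.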

How the results depend on the processing

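All 16 called changes of members kept their sign in every alternative fit, and 6 were called in every one. Of the counts of called members, 225 stayed within 1.5 times, 36 were lower and 6 higher. Called members in WT 3W against WT P12 (1) were 0 with no filter on low values, quantile normalization, the compared groups alone or array weights. Those in WT 6M against WT 3W (3) were 0 with the compared groups alone. Those in WT 12W HFD against WT 1W HFD (2) were 1 with a pseudocount of 0.1, no filter or median-ratio scaling. Those in KO 1W HFD against KO 3W (2) were 1 with a pseudocount of 0.1, 0 with no filter, median-ratio scaling or the compared groups alone, and 4 with array weights. With array weights KO 12W HFD against KO 3W had 5 (main 3) and KO 12W HFD against KO 1W HFD had 1 (main 0). Leaving out a library gave 0 to 2 for WT 3W against WT P12, 0 to 3 for WT 6M against WT 3W, 1 to 2 for WT 1W HFD against WT 3W, 1 to 2 for WT 12W HFD against WT 1W HFD, 0 to 1 for WT 12W HFD against WT 6M, 0 to 2 for KO 1W HFD against KO 3W and 1 to 3 for KO 12W HFD against KO 3W; where it leaves 1 library in a group, that library is assumed to vary like the others. With fewer libraries fewer degrees of freedom remain; otherwise the cause was not tested.

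The titles name pairs of KO and WT libraries at 3W and do not say what a pair shares; they were taken as pairs only if every correlation of deviations was over 0.1. Of 6, 5 were (highest 0.48) and 1, in pair 3, was -0.13, so that bar was not met. Cfb was higher in KO in 5 of 5 pairs (by 0.06 to 0.81), and C2, C3 and C1ra in 4. C4b and Serping1 were higher in 3 pairs and C7 in 2, with the mean of the WT libraries used in pair 3. The share of all genes higher in KO in every pair was not counted, so these counts are a description. With the replicate block, which used these pairs, 0 members were called in KO 3W against WT 3W, as without it. In the other comparisons the block used replicate numbers alone, which the labels do not call pairs. There the called members were 0 in WT 3W against WT P12, 1 in WT 1W HFD against WT 3W, 1 in WT 12W HFD against WT 1W HFD and 0 in KO 1W HFD against KO 3W. The planned sum of C4a with C4b was not run, because no RNA row carried the symbol C4a. With a −log10 q of at least 5, the lower end of C4b had a peak in 5 lists and that of Serping1 in 0.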
